A study of Mus musculus with 44 samples.

Results

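The 9 genes described here encode matrix proteoglycans: 8 small leucine-rich proteoglycans, namely biglycan (Bgn), decorin (Dcn), asporin (Aspn), fibromodulin (Fmod), lumican (Lum), Prelp, epiphycan (Epyc) and osteoglycin (Ogn), and the large proteoglycan versican (Vcan). They were picked by gene symbol in the array's annotation and are 9 of the 12394 genes measured, with 21 of the 20393 probe sets that name 1 gene. Where a gene had several probe sets, the one with the largest SD over all arrays stands for it below. The others are given beside some of the results and do not always point the same way.

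Small leucine-rich proteoglycans are secreted proteins that bind collagen fibrils, set their width and spacing, and hold growth factors such as TGF-β in the matrix. Free biglycan and decorin also act as ligands of cell surface receptors, among them Toll-like receptors. Versican carries chondroitin sulfate chains, binds hyaluronan and is known for the loose matrix of developing heart valves and of injured muscle. In the heart these genes are expressed mainly by fibroblasts and by the interstitial cells of the valves.

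RNA from the left ventricle of 44 mice aged 6 months was hybridised to Affymetrix 430A 2.0 arrays, 1 array per mouse. PKCε mice carried an active form of rabbit protein kinase Cε under the mouse Myh6 promoter, which is used by cardiomyocytes, and develop dilated cardiomyopathy. FG-3149 is an antibody that binds CTGF, a secreted matricellular protein encoded by Ccn2 and known for its part in fibrosis. The values are log2 ratios to the median of each probe set over the arrays, so a level can be compared between mice and not between genes.

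The PKCε FG-3149 group held 12 transgenic mice given the antibody (6 females and 6 males), and the PKCε IgG group held 10 transgenic mice given nonimmune mouse IgG (5 females and 5 males). The FVB FG-3149 group held 12 nontransgenic FVB/N mice given the antibody (6 females and 6 males), and the FVB IgG group held 10 nontransgenic FVB/N mice given IgG (7 females and 3 males). All 4 groups share the FVB/N background. Treatment began at 3 months of age and lasted 3 months, with 2 intraperitoneal injections of 30 mg/kg each week. The nontransgenic mice came from a commercial breeder and the transgenic mice from a university colony, so the origin of the mice and the transgene cannot be told apart. Within each line the treatments have separate runs of mouse numbers, so a cohort cannot be told apart from the treatment either. In samples of whole tissue, more cells of a type and more RNA per cell cannot be told apart.

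In PKCε IgG ventricles Myh7, a fetal myosin gene that marks a failing mouse ventricle, lay 3.22 ± 0.13 above FVB IgG ventricles (log2 difference ± SE, limma, adjusted p = 5.05e-22), and Ccn2 lay 0.74 ± 0.23 above them (adjusted p = 0.00756). FG-3149 left Ccn2 uncalled, at -0.35 in PKCε mice (adjusted p = 0.363) and -0.52 in FVB mice (adjusted p = 0.135). The mouse Prkce probe set lay 0.49 ± 0.15 above (adjusted p = 0.00596), and whether it detects the rabbit transgene is not known here. The atrial marker level, the mean of Sln, Myl7 and Myl4, lay above 4 on 10 arrays, of which 2 were PKCε FG-3149, 2 PKCε IgG, 1 FVB FG-3149 and 5 FVB IgG. On 2 PKCε IgG arrays the lung genes Sftpc and Scgb1a1 both lay above 3, and 1 array labelled female (FVB FG-3149) had a high value of the Y-linked gene Uty. Results that change without these arrays are given with and without them.

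The transgene went with a broad shift of these genes. In PKCε IgG ventricles 6 of the 9 genes rose relative to FVB IgG ventricles (versican, Prelp, biglycan, lumican, asporin and decorin), 1 was lower (epiphycan), and fibromodulin and osteoglycin did not pass the test. Called genes are those with an adjusted p under 0.05 in limma, and 42.2% of all genes were called in this comparison, 20.7% higher and 21.5% lower. The median difference of the 9 genes was 1.07, against -0.046 for all genes. Among mice given FG-3149, 7 of the 9 genes were higher in PKCε than in FVB ventricles, against a share of 47% of all genes called and 21.5% called higher. These were the 6 genes above and fibromodulin, with a median of 0.82 over the 9 genes and -0.048 over all genes. The comparison shares no array with the first.

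**Figure D1:**
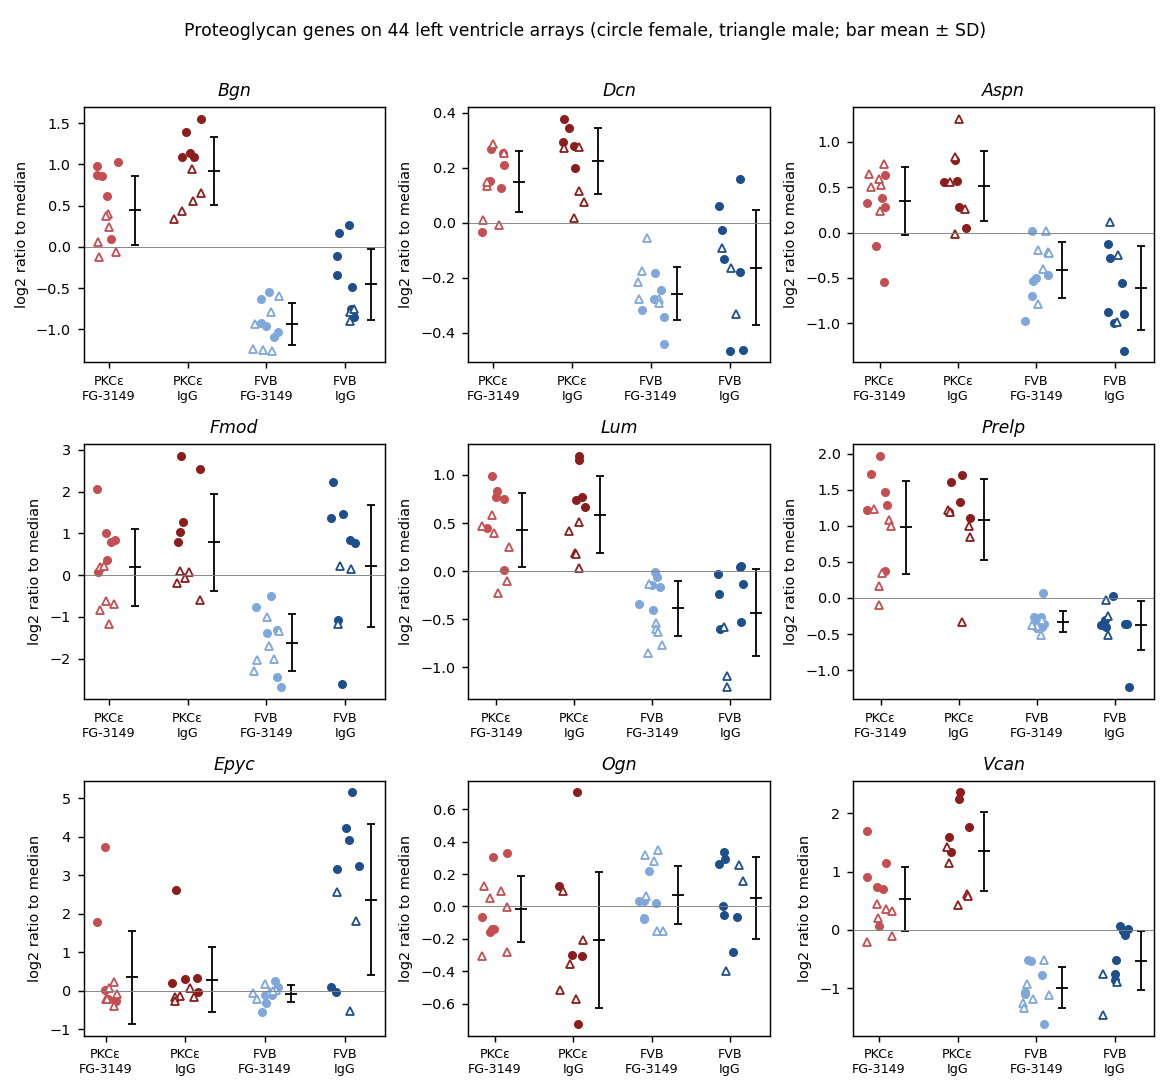
Log2 ratio of each of the 9 proteoglycan genes on each array (y axis, log2 ratio to the median of the probe set) in the 4 groups (x axis), with circles for females, triangles for males and bars for the mean ± SD of each group. The PKCε groups sit above the FVB groups for Bgn, Dcn, Aspn, Lum, Prelp and Vcan, while for Epyc 7 of the 10 FVB IgG arrays lie between 1.82 and 5.15.

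Versican showed the largest difference of the 9 genes in the IgG groups. Its values (lowest, median and highest) were 0.43, 1.37 and 2.36 in PKCε IgG ventricles, against -1.46, -0.63 and 0.075 in FVB IgG ventricles. All 10 PKCε IgG arrays therefore lay above all 10 FVB IgG arrays. The means were 1.35 ± 0.67 and -0.52 ± 0.51 (SD, n = 10 each), and the fitted difference was 1.99 ± 0.18 or 3.98-fold (limma, adjusted p = 1.33e-11). Its 3 probe sets were higher by 1.61 to 1.99.

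Under FG-3149 the versican values were -0.20, 0.41 and 1.70 in PKCε ventricles, against -1.61, -1.08 and -0.51 in FVB ventricles. The groups again did not overlap, and the difference was 1.52 ± 0.17 (limma, adjusted p = 1.17e-09).

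Biglycan, which carries chondroitin or dermatan sulfate chains and can act on Toll-like receptors, had values of 0.33, 1.02 and 1.55 in PKCε IgG ventricles, against -0.89, -0.62 and 0.26 in FVB IgG ventricles. These groups did not overlap either, and the difference was 1.47 ± 0.13 or 2.77-fold (limma, adjusted p = 5.28e-12). In mice given FG-3149 its values were -0.12, 0.39 and 1.03 in PKCε ventricles, against -1.26, -0.94 and -0.55 in FVB ventricles. All 12 PKCε arrays were above all 12 FVB arrays here, with a difference of 1.38 ± 0.12 (limma, adjusted p = 2.49e-12). Versican and biglycan were the 2 of the 9 genes whose IgG groups did not overlap, and 4.38% of all genes showed no overlap in that comparison.

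The stretches of 250 bases before the annotated start of versican and biglycan are shown because both genes rose with the transgene and were lower under the antibody in PKCε mice. They come from RefSeq on GRCm38.p6, at chr13:89742513-89742762 on the minus strand for Vcan and at chrX:73483351-73483600 on the plus strand for Bgn, and run 5′ to 3′. They hold no capitals, which would mark a match to the motifs named after them.
Vcan: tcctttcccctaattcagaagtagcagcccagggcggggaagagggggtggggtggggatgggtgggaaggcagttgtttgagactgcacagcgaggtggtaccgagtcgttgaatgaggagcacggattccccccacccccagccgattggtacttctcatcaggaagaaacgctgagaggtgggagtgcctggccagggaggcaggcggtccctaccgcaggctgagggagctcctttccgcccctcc
Bgn: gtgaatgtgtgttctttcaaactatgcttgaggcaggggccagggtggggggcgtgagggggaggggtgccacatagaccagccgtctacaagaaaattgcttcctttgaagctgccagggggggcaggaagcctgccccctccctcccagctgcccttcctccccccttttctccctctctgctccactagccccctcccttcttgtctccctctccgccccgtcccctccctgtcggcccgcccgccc
Both windows are rich in G and C, at 62.4% in Vcan and 64.4% in Bgn, against a median of 52.4% over 32851 windows of the same length. Neither holds, on either strand, the SMAD box CAGAC (present in 42.2% of all windows), the TEAD motif GGAATG (12.6%), the AP-1 motif TGANTCA (6.75%) or TATAAA (12.4%). That says only that these letters are not in these windows.

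Decorin, the nearest relative of biglycan and a binder of TGF-β, changed less. Its values were 0.018, 0.27 and 0.38 in PKCε IgG ventricles, against -0.46, -0.15 and 0.16 in FVB IgG ventricles, and 7 of the 10 PKCε IgG arrays were above all FVB IgG arrays. The difference was 0.39 ± 0.063 or 1.31-fold (limma, adjusted p = 2.36e-06). Under FG-3149 it had -0.034, 0.15 and 0.29 in PKCε ventricles, against -0.44, -0.28 and -0.054 in FVB ventricles. These groups did not overlap, and the difference of 0.41 ± 0.057 (limma, adjusted p = 2.11e-07) was close in size to that under IgG. With biglycan and versican, decorin made 3 of the 9 genes without overlap under FG-3149, where 5.25% of all genes showed none.

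Asporin, a collagen-binding member of the same class that inhibits TGF-β in cartilage, had values of -0.014, 0.56 and 1.25 in PKCε IgG ventricles, against -1.30, -0.71 and 0.11 in FVB IgG ventricles. The groups overlapped by 2 PKCε IgG arrays, and the difference was 1.07 ± 0.16 or 2.10-fold (limma, adjusted p = 4.26e-07). Its other probe set differed by 0.95. Under FG-3149 asporin had -0.54, 0.44 and 0.75 in PKCε ventricles, against -0.97, -0.44 and 0.019 in FVB ventricles. Of the 12 PKCε arrays 10 lay above all FVB arrays, and the difference was 0.76 ± 0.14 (limma, adjusted p = 3.31e-05).

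Lumican, which regulates fibril assembly in cornea and skin, had values of 0.033, 0.59 and 1.20 in PKCε IgG ventricles, against -1.21, -0.38 and 0.051 in FVB IgG ventricles. Of the 10 PKCε IgG arrays 9 lay above all FVB IgG arrays, and the difference was 1.12 ± 0.12 or 2.18-fold (limma, adjusted p = 4.34e-10). Under FG-3149 its values were -0.23, 0.46 and 0.98 in PKCε ventricles, against -0.85, -0.37 and -0.0091 in FVB ventricles. The ranges met at 2 PKCε arrays, and the difference was 0.82 ± 0.11 (limma, adjusted p = 6.36e-08).

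Prelp, a protein that links basement membranes to collagen, had values of -0.33, 1.19 and 1.71 in PKCε IgG ventricles, against -1.24, -0.36 and 0.023 in FVB IgG ventricles. All but 1 of the PKCε IgG arrays were above every FVB IgG array, and the difference was 1.54 ± 0.19 or 2.90-fold (limma, adjusted p = 1.22e-08). Under FG-3149 its values were -0.092, 1.14 and 1.97 in PKCε ventricles, against -0.51, -0.37 and 0.071 in FVB ventricles. The difference was 1.31 ± 0.17 (limma, adjusted p = 5.51e-08), with 11 of the 12 PKCε arrays above all FVB arrays. Its other probe set differed by 1.11 under IgG and 1.07 under FG-3149.

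Fibromodulin, a collagen-binding keratan sulfate proteoglycan of tendon and cartilage, spread widely. Its values were -0.60, 0.45 and 2.87 in PKCε IgG ventricles, against -2.62, 0.49 and 2.24 in FVB IgG ventricles. The ranges lay over each other, and the difference of 0.77 did not pass the test (95% interval -0.067 to 1.60, limma, adjusted p = 0.128). Without the 10 arrays of high atrial marker level the difference was 1.52 and passed it (adjusted p = 0.00931). Under FG-3149 fibromodulin had -1.18, 0.21 and 2.06 in PKCε ventricles, against -2.69, -1.54 and -0.49 in FVB ventricles, and was higher by 1.80 ± 0.37 or 3.49-fold (limma, adjusted p = 0.000144). Its 6 probe sets differed by 0.45 to 0.86 under IgG, where none was called, and by 0.74 to 1.80 under FG-3149.

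Osteoglycin, also called mimecan, was the member that differed least between PKCε and FVB ventricles, under IgG and under FG-3149. Its values were -0.72, -0.30 and 0.70 in PKCε IgG ventricles, against -0.40, 0.080 and 0.34 in FVB IgG ventricles. The difference of -0.24 did not pass the test (95% interval -0.49 to -0.0014, limma, adjusted p = 0.0959), and its other probe set differed by -0.00096. Without the 2 arrays of high lung markers the difference was -0.35 and passed it (adjusted p = 0.0118). Under FG-3149 it had -0.31, -0.034 and 0.33 in PKCε ventricles, against -0.15, 0.033 and 0.35 in FVB ventricles, and the difference was -0.087 (95% interval -0.31 to 0.13, limma, adjusted p = 0.517).

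Asporin and osteoglycin lie in 1 cluster with Ecm2 and Omd on chromosome 13, and their upstream windows are shown because asporin was higher in PKCε ventricles in both comparisons while osteoglycin was not called in either. The windows are RefSeq on GRCm38.p6, at chr13:49544193-49544442 for Aspn and chr13:49607765-49608014 for Ogn, both on the plus strand, 5′ to 3′, with matches to the 4 motifs in capitals.
Aspn: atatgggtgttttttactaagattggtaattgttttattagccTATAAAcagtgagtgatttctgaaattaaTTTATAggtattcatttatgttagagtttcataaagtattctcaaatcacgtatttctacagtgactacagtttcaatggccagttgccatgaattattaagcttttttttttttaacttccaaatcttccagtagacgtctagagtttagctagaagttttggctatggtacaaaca
Ogn: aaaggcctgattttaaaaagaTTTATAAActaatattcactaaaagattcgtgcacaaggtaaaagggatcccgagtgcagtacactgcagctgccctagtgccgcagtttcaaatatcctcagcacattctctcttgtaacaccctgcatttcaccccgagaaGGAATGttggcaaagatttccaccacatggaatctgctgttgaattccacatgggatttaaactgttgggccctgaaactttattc
Both hold 2 matches to TATAAA, counted on both strands and overlapping in Ogn, and Ogn also holds 1 match to GGAATG. G and C make up 30.0% of the Aspn window and 42.0% of the Ogn window. Osteomodulin (Omd), the other leucine-rich proteoglycan of this cluster, rose by 0.93 ± 0.21 in PKCε IgG relative to FVB IgG ventricles (limma, adjusted p = 0.000374). Of the other members, Dcn, Lum, Kera and Epyc follow each other on chromosome 10, and Optc, Prelp and Fmod on chromosome 1. Bgn on chromosome X and Vcan on chromosome 13 have no leucine-rich proteoglycan gene among the nearest protein-coding genes on either side. Kera (keratocan) and Optc (opticin) differed by -0.096 and -0.092 and were not called.

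**Figure D2:**
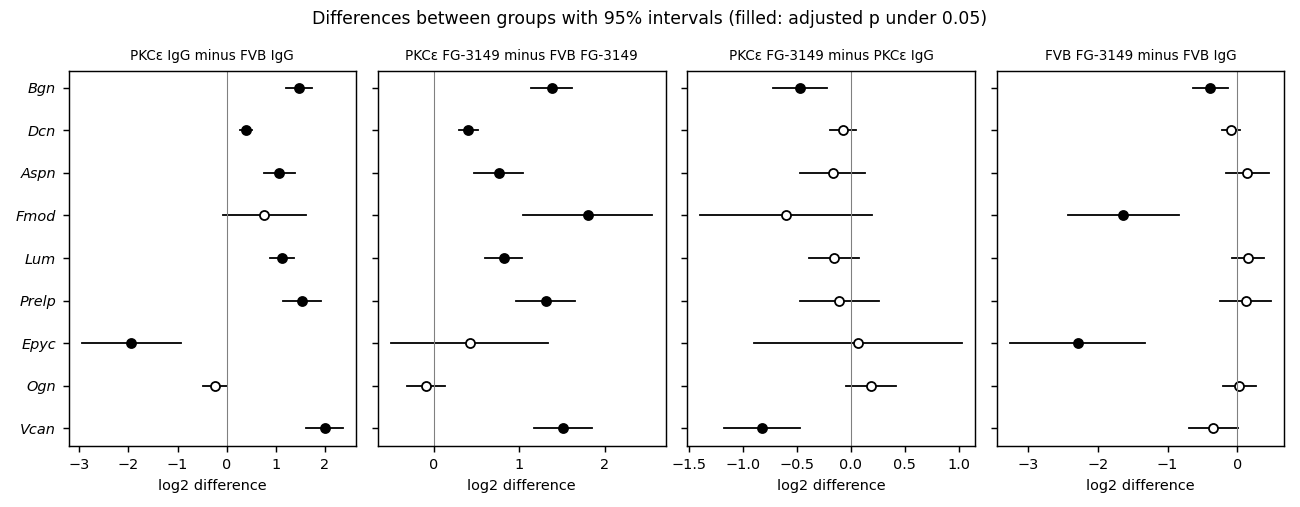
Fitted log2 difference of each of the 9 genes (x axis) with its 95% interval (line) in 4 comparisons (panels), with filled points for an adjusted p under 0.05. Most points of the first and second panels lie right of 0, and in the third the filled points are Bgn (-0.47) and Vcan (-0.82).

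Epiphycan, a proteoglycan known from growth plate cartilage, was the member that went down. Its values were -0.26, 0.018 and 2.60 in PKCε IgG ventricles, against -0.53, 2.86 and 5.15 in FVB IgG ventricles. Of the 10 FVB IgG arrays 7 lay between 1.82 and 5.15 and the other 3 between -0.53 and 0.089, while 9 of the 10 PKCε IgG arrays were at or below 0.34. The difference was -1.94 ± 0.50 or 3.83-fold lower (limma, adjusted p = 0.00183). Without the 10 arrays of high atrial marker level it fell by 0.72 on the log2 scale and was still called (adjusted p = 0.0462).

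Among mice given FG-3149, epiphycan had -0.40, -0.16 and 3.73 in PKCε ventricles, against -0.56, -0.051 and 0.24 in FVB ventricles. The difference of 0.42 did not pass the test (95% interval -0.50 to 1.34, limma, adjusted p = 0.452).

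High epiphycan went with atrial markers on most arrays. The 5 FVB IgG arrays with an atrial marker level above 4 had epiphycan at 3.16 to 5.15, and the other 5 had -0.53 to 2.56. In PKCε FG-3149 ventricles, the 2 arrays above 4 had 1.78 and 3.73 and the other 10 had -0.40 to 0.22. There were exceptions in both directions. FVB IgG replicates 7 and 8 had epiphycan at 1.82 and 2.56 with atrial levels of 0.49 and 2.55, while PKCε IgG replicate 5 and FVB FG-3149 replicate 8 had epiphycan at -0.16 and -0.041 with atrial levels of 5.92 and 4.40. The part of atrial tissue in the epiphycan values was not tested beyond these splits and the fits given beside each result.

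**Figure D3:**
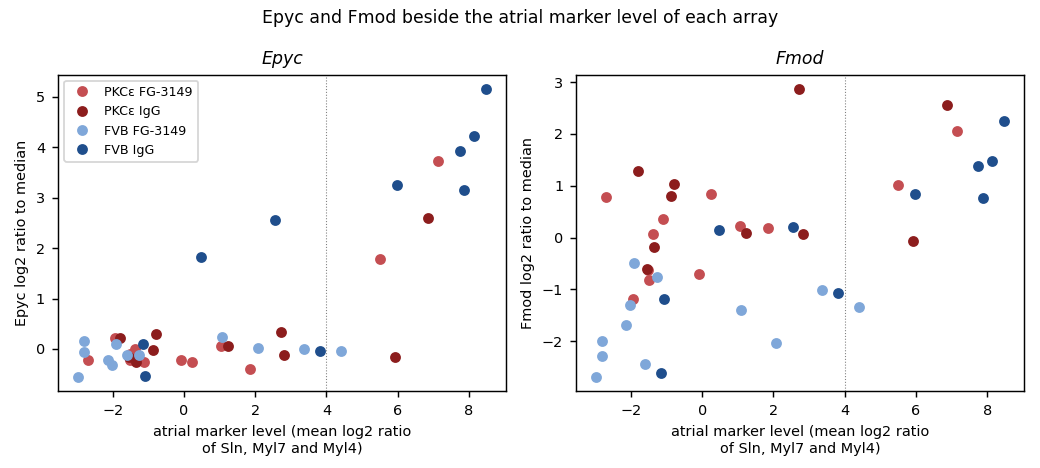
Log2 ratio of Epyc (left) and Fmod (right) on each array (y axis) beside the atrial marker level of the array (x axis, averaged log2 ratios of Myl7, Sln and Myl4), coloured by group, with a dotted line at 4. Right of the line 8 of the 10 arrays have Epyc at 1.78 or more, and left of it 2 FVB IgG arrays do.

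Some genes that these proteins bind, or that build and cut them, were called in PKCε IgG against FVB IgG ventricles. Among all genes 20.7% were called higher there and 21.5% lower. Of 13 collagens measured that these proteins bind, 11 were higher in PKCε IgG ventricles and none was lower, with a median difference of 1.20. They were led by Col5a1 (1.20 ± 0.095, limma, adjusted p = 3.08e-13), Col6a3 (1.15) and Col6a1 (1.39). Of 21 genes that build glycosaminoglycan chains, 10 were higher and 1 was lower, among them Chpf (1.46), which polymerises chondroitin, and Chst7 (0.65), which sulfates it. Of 11 proteases that cut proteoglycans or process their precursors, 4 were higher and 3 lower, with Bmp1 (0.85), which trims the propeptide of biglycan, and Mmp2 (1.16) among the higher ones.

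Of 11 receptors for these proteins, 6 were higher and none lower, led by Lrp1 (1.21), an endocytic receptor for decorin, and Tlr4 (0.76), a receptor for biglycan. Of 12 TGF-β pathway genes, 8 of them ligands and receptors and 4 Smad genes, 7 were higher and none lower, with Tgfb2 at 1.77 and Tgfb3 at 1.28. The 4 Smad genes (Smad2, Smad3, Smad4 and Smad7) were not called. Of 11 heparan sulfate proteoglycans, 6 were higher and none lower, led by syndecan Sdc2 (0.70) and glypican Gpc4 (0.84). Of 12 genes for hyaluronan synthesis and binding, including the related proteoglycans Acan, Ncan and Bcan, 3 were higher and none lower, led by the hyaluronan receptor Cd44 (0.73), while the synthase Has2 (0.019) and the link protein Hapln1 (-0.12) were not called. The medians of these lists ran from -0.016 (hyaluronan) to 1.20 (collagens), against -0.046 for all genes. The hyaluronan count is near the share of all genes called higher, 20.7%.

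Several fibroblast markers were called higher too, against 20.7% of all genes called higher and 21.5% lower. Of 10 fibroblast markers 6 were higher and none lower in PKCε IgG relative to FVB IgG ventricles (median 0.50), led by Col15a1 (1.41), Mfap5 (1.99) and Pi16 (1.38), and all 10 were higher in PKCε than in FVB ventricles under FG-3149. The mean of the 10 ran from 0.13 to 0.72 over PKCε IgG arrays, against -0.75 to 0.27 over FVB IgG arrays. Of 11 valve, tendon and cartilage markers 3 were higher (Sox9 at 1.32 and Tnmd at 0.90 among them) and 2 lower (Cnmd at -1.09 and Chad at -0.52). All 4 adipocyte markers were lower in PKCε IgG ventricles, Adipoq among them (-2.25). None of 4 mesothelial or 3 atrial markers was called in limma, though 2 and 1 had an unadjusted p under 0.05. Of the other cell types, 2 of 8 smooth muscle and pericyte markers were higher and 2 lower, 1 of 6 macrophage markers was higher, and 4 of 8 cardiomyocyte markers were lower. No endothelial marker (of 5) or lung marker (of 5) was called, with 0 and 1 at an unadjusted p under 0.05. The values are ratios, so which markers are near 0 cannot be told, and the part of cell composition in the proteoglycan differences was not tested.

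In PKCε mice 2 of the 9 genes fell with FG-3149, versican and biglycan. In this comparison 8.82% of all genes were called, 3.74% lower, and the median difference was -0.15 over the 9 genes and 0.016 over all genes. For none of the 9 genes were the groups apart without overlap, against 0.113% of all genes. Versican values were -0.20, 0.41 and 1.70 in PKCε FG-3149 ventricles, against 0.43, 1.37 and 2.36 in PKCε IgG ventricles. The ranges overlapped, with 6 of the 12 FG-3149 arrays below all IgG arrays and 11 of 12 below the IgG median. The difference was -0.82 ± 0.18 or 1.77-fold lower (limma, adjusted p = 0.00203), and its 3 probe sets fell by 0.66 to 0.82.

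Biglycan values were -0.12, 0.39 and 1.03 in PKCε FG-3149 ventricles, against 0.33, 1.02 and 1.55 in PKCε IgG ventricles. Of the 12 FG-3149 arrays 5 were below all IgG arrays and 11 below the IgG median, and the difference was -0.47 ± 0.12 or 1.39-fold lower (limma, adjusted p = 0.0118). Its other probe sets differed by -0.43 and -0.54 and were called too. The biglycan call was lost without the 10 arrays of high atrial marker level (-0.39, adjusted p = 0.0614), without the 2 arrays of high lung markers (-0.43, adjusted p = 0.0594) and with RNA quality as a covariate (-0.40, adjusted p = 0.0990), measured as the gap between the 3′ and 5′ Gapdh control probe sets. That gap was 0.037 ± 0.11 on PKCε FG-3149 arrays and 0.30 ± 0.25 on PKCε IgG arrays (SD, n = 12 and 10). Versican kept its call in these 3 fits, at -0.72, -0.73 and -0.99. Both genes still lay above the FVB FG-3149 group on every PKCε FG-3149 array.

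The other 7 genes did not pass the test in PKCε mice. Their differences were -0.075 for decorin (95% interval -0.20 to 0.046), -0.17 for asporin (-0.47 to 0.14), -0.60 for fibromodulin (-1.39 to 0.19), -0.15 for lumican (-0.38 to 0.075), -0.11 for Prelp (-0.47 to 0.26), 0.066 for epiphycan (-0.90 to 1.03) and 0.19 for osteoglycin (-0.041 to 0.42). The decorin interval is the narrowest of these 7 and that of epiphycan the widest. Group means of the other probe set were 0.49 for Prelp, 0.44 for asporin and 0.070 for osteoglycin in PKCε FG-3149 ventricles. In PKCε IgG ventricles these means were 0.73, 0.42 and 0.0029 in the same order, so asporin's other probe set did not fall. The differences of the 2 comparisons that share the PKCε IgG arrays, PKCε against FVB under IgG and FG-3149 against IgG in PKCε mice, were 1.99 and -0.82 for versican, 1.47 and -0.47 for biglycan and 1.54 and -0.11 for Prelp.

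Around versican and biglycan, 6 of 13 collagens fell with FG-3149 in PKCε ventricles and none rose (median -0.38), led by Col5a2 (-0.78 ± 0.17, limma, adjusted p = 0.00229), Col3a1 (-0.81) and Col1a2 (-0.63). Adamts4, a protease that cuts versican and aggrecan, fell by 0.84 on the log2 scale, and Mmp14 by 0.55, these being 2 of 11 proteases. Of the 12 TGF-β pathway genes 3 fell, Tgfb3 (-0.60), Tgfbr2 (-0.29) and Eng (-0.35). None of the 21 chain-building genes, 11 receptors or 12 hyaluronan genes was called in limma, with 5, 2 and 1 at an unadjusted p under 0.05. Of 10 fibroblast markers 2 fell (Pi16 at -0.67 and Mfap5 at -0.66) and Scara5 rose (0.47), and the mean of the 10 ran from -0.047 to 0.64 over PKCε FG-3149 arrays, against 0.13 to 0.72 over PKCε IgG arrays. Of 8 smooth muscle and pericyte markers Cspg4 fell (-0.49) while Rgs5 (0.52) and Kcnj8 (0.26) rose, and of 8 cardiomyocyte markers Myh6 (0.62) and Pln (0.25) rose. The cartilage marker Cnmd rose too (0.85). Of all genes 8.82% were called in this comparison, 3.74% lower. The part of cell composition in the versican and biglycan differences was not tested.

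In FVB mice 3 of the 9 genes fell with FG-3149, epiphycan, fibromodulin and biglycan, where 9% of all genes were called and 4.57% lower. The median difference was -0.090 over the 9 genes and 0.025 over all genes. No member's groups were apart without overlap, against 0.234% of all genes. All 12 FVB FG-3149 arrays had epiphycan between -0.56 and 0.24, against the range of -0.53 to 5.15 in FVB IgG ventricles. The means were -0.076 ± 0.22 (SD, n = 12) and 2.36 ± 1.96 (SD, n = 10), and the fitted difference was -2.29 ± 0.48 or 4.89-fold lower (limma, adjusted p = 0.00159). Fibromodulin had -2.69, -1.54 and -0.49 in FVB FG-3149 ventricles, against -2.62, 0.49 and 2.24 in FVB IgG ventricles. All 12 FG-3149 arrays were below the IgG median, and the difference was -1.63 ± 0.40 or 3.10-fold lower (limma, adjusted p = 0.00624).

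Of the 5 other fibromodulin probe sets 2 were called, and all differed by -0.70 to -1.11. Biglycan had -1.26, -0.94 and -0.55 in FVB FG-3149 ventricles, against -0.89, -0.62 and 0.26 in FVB IgG ventricles. Its difference was -0.39 ± 0.13 (limma, adjusted p = 0.0439), and its other probe sets, at -0.26 and -0.33, were not called. This call held in 8 of 19 alternatives. It was lost without the female-labelled array of high Uty (-0.36, adjusted p = 0.0801), with the mean of the probe sets (-0.32, adjusted p = 0.0991) and after quantile normalization (-0.30, adjusted p = 0.0748), among others.

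Markers of other tissues and cell types differed in the same comparison, where 9% of all genes were called. All 3 atrial markers were lower in FVB FG-3149 than in FVB IgG ventricles, by -4.00 (Myl4) to -5.01 (Myl7), and the atrial marker level ran from -2.97 to 4.40 over FVB FG-3149 arrays, against -1.16 to 8.47 over FVB IgG arrays. All 4 adipocyte markers were lower too, Adipoq by -2.25 and Car3 by -2.36, and 1 of 4 mesothelial markers, Krt19, by -0.94. Of 6 macrophage markers 2 were lower, Cd163 (-0.76) and Csf1r (-0.39). Of 8 smooth muscle and pericyte markers 2 were lower, Myh11 (-0.60) and Tagln (-0.71), and 2 higher, Rgs5 (0.70) and Kcnj8 (0.41). With the atrial marker level as a covariate the differences were -1.07 for epiphycan, -0.75 for fibromodulin and -0.24 for biglycan, and none was called (adjusted p = 0.182, 0.405 and 0.550). Without the 10 arrays of high atrial marker level they were -0.83, -0.82 and -0.21, and again none was called (adjusted p = 0.125, 0.478 and 0.635). The part of these tissues and cell types in the 3 differences was not tested, and a cohort cannot be told apart from the antibody.

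The other 6 genes were not called in FVB mice. Their differences were -0.090 for decorin (95% interval -0.21 to 0.033), 0.15 for asporin (-0.16 to 0.45), 0.15 for lumican (-0.082 to 0.38), 0.12 for Prelp (-0.25 to 0.49), 0.032 for osteoglycin (-0.20 to 0.27) and -0.34 for versican (-0.70 to 0.015). Prelp's other probe set was lower with FG-3149, with group means of -0.57 against -0.36 under IgG. For asporin the other probe set had -0.32 against -0.60, and for osteoglycin -0.032 against 0.022. These means are not adjusted for sex. Of the other genes, 4 of 11 heparan sulfate proteoglycans fell, led by Sdc4 (-0.74), 2 of 13 collagens (Col14a1 at -0.64 and Col3a1 at -0.63), and 3 of 10 fibroblast markers, Pi16 (-0.78) first. Of 11 proteases 2 fell, Adamts5, which cuts versican and aggrecan (-0.93), and Adamts15 (-0.52). Of 12 hyaluronan genes Cd44 fell (-0.47), and of 11 valve, tendon and cartilage markers Comp did (-1.55). Of 11 receptors 2 were higher (Itgb1 at 0.26 and Igf1r at 0.28), and of 21 chain-building genes B3gat3 rose (0.19) and Ugdh fell (-0.35). In this comparison 9% of all genes were called, 4.57% lower, and several of these counts lie near those shares.

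The antibody effect itself differed between the lines for 1 of the 9 genes, epiphycan, at 2.36 ± 0.68 (PKCε minus FVB, limma, adjusted p = 0.0385), where 3.86% of all genes were called. This call was lost with the atrial marker level as a covariate (1.37, adjusted p = 0.145), without the 10 arrays of high atrial level (0.64, adjusted p = 0.534) and without the 2 arrays of high lung markers (2.25, adjusted p = 0.0799). Leaving out single arrays gave 2.08 to 2.67, with an adjusted p up to 0.0599. For versican the line difference was -0.48 (95% interval -0.98 to 0.024, adjusted p = 0.344) and for biglycan -0.086 (-0.44 to 0.27, adjusted p = 0.882). For versican and biglycan a difference between the lines was thus not shown.

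Versican's probe sets parted in FVB mice. In the fit of all probe sets 1427257_at was lower with FG-3149 in FVB mice by -0.80 ± 0.17 (limma, adjusted p = 0.00250), while 1427256_at and 1421694_a_at each differed by -0.34 and were not called (adjusted p = 0.253 and 0.257). Per array, 1427257_at minus 1427256_at averaged -0.31 in FVB FG-3149 ventricles and 0.14 in FVB IgG ventricles. The difference was -0.45 (permutation test with 100000 resamples, two-sided, p = 6e-05, adjusted p = 0.00012 over 4 comparisons). Within females it was -0.38 (exact permutation p = 0.00233) and within males -0.62 (exact permutation p = 0.0238). The probe set 1427257_at was picked because it was called in this comparison and the others were not. A gap on these arrays was thus favoured by the choice, and these p-values are no independent support for it.

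The same value was -0.24 in PKCε IgG ventricles against 0.14 in FVB IgG ventricles, a difference of -0.38 (permutation p = 6e-05, adjusted p = 0.00012). It was -0.084 in PKCε FG-3149 ventricles, which was 0.16 above PKCε IgG (permutation p = 0.027) and 0.23 above FVB FG-3149 (permutation p = 0.00492). The first of these was not called without the arrays of high atrial level (0.11, adjusted p = 0.154), without those of high lung markers (0.13, adjusted p = 0.0777), or without PKCε IgG replicate 5 (adjusted p = 0.0556) or 10 (adjusted p = 0.0510). Within females and males the exact permutation p was 0.0866 and 0.177 for the first, 0.0130 and 0.184 for the second, and 0.00758 and 0.0357 for PKCε IgG against FVB IgG. Without the 10 arrays of high atrial marker level the difference in FVB mice was -0.48 (adjusted p = 0.00916). These tests were added after the data had been seen, and those that use FVB arrays share arrays with the choice of the probe set. The transcripts that each probe set detects are not given in the files used here.

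**Figure D4:**
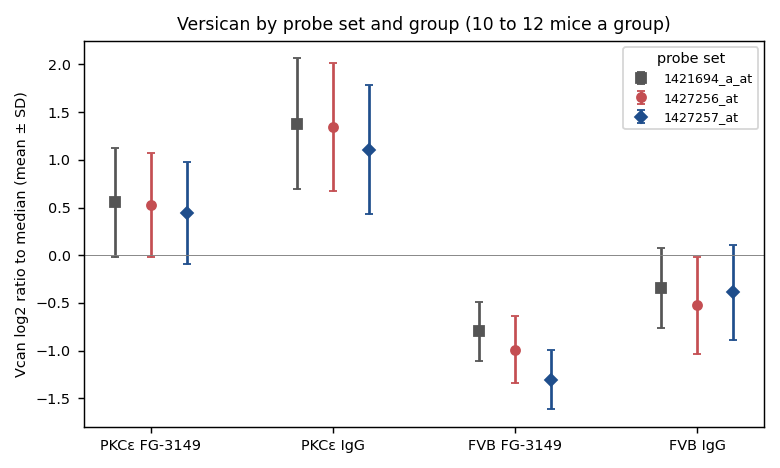
Mean ± SD of the 3 versican probe sets (y axis, log2 ratio to the median) in each group (x axis, 12, 10, 12 and 10 mice). The probe set 1427257_at (diamonds) is the lowest of the 3 in FVB FG-3149 ventricles, at -1.30, and lies between the others in FVB IgG ventricles, at -0.39.

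Sex went with 4 of the 9 genes. Females were above males for fibromodulin (1.01 ± 0.28, adjusted p = 0.0113), versican (0.62 ± 0.13, adjusted p = 0.000694), lumican (0.53 ± 0.081, adjusted p = 1.73e-05) and biglycan (0.47 ± 0.089, adjusted p = 0.000342), all in limma, where 15.8% of all genes were called and 8.67% higher in females. The median was 0.47 over the 9 genes and -0.018 over all genes. Versican in PKCε IgG ventricles had 1.33, 1.77 and 2.36 in females, against 0.43, 0.61 and 1.42 in males (lowest, median and highest, n = 5 each). Lumican in the same group had 0.67, 0.77 and 1.20 in females, against 0.033, 0.18 and 0.51 in males. In the PKCε IgG group the males had mouse numbers 192 to 196 and the females 322 to 325 and 362. A cohort thus cannot be told apart from sex within that group. Both arrays of high lung markers were also from its females. Without the 10 arrays of high atrial marker level the fibromodulin difference was 0.55 and was not called (adjusted p = 0.221).

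Asporin pointed the other way, at -0.27 (adjusted p = 0.0743), and its second probe set, 1416652_at, was lower in females by -0.32 and was called in the fit of all probe sets (adjusted p = 0.0254). Prelp (0.35, adjusted p = 0.0568), epiphycan (0.72, adjusted p = 0.134), osteoglycin (0.058) and decorin (0.026) were not called. Fibroblast and adipocyte markers moved with sex as well: 5 of 10 fibroblast markers were higher in females and 1 lower, led by Mfap5 (0.98), and 3 of 4 adipocyte markers were higher, led by Car3 (2.27). Of 6 macrophage markers 3 were higher, Cd68 (0.36), Cd163 (0.43) and C1qa (0.28), as were mesothelial Krt19 (0.60) and lung Scgb1a1 (2.29). Lower in females were pericyte Rgs5 (-0.27) and Kcnj8 (-0.28), endothelial Kdr (-0.34), cardiomyocyte Myl3 (-0.15) and cartilage Cnmd (-1.61), while the tendon marker Tnmd was higher (0.65). Collagen Col14a1 was higher in females by 1.72. The part of these cell types in the sex differences was not tested. Of all genes 15.8% were called by sex, 8.67% higher in females.

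Within sexes, the PKCε effect under IgG was called for 8 of the 9 genes in females, where 42.3% of all genes were called, and for 6 in males, where 14.5% were. The 2 genes called in females and not in males were fibromodulin (1.28 in females, 0.14 in males) and epiphycan (-2.14 in females, -1.41 in males). The difference between the sexes was itself called for 0 of the 9 genes, against 0.0807% of all genes, and 1 (Prelp) had an unadjusted p under 0.05, against 8.6% of all genes. Without the 10 arrays of high atrial marker level 2 members, decorin and fibromodulin, were called for it. The share of all genes called in that fit is not given here, so the count cannot be set against it. The only FVB IgG females left in that fit were replicates 5 and 10. In the antibody effect in PKCε mice 0 of the 9 genes differed between the sexes in limma, against 0.0161% of all genes called, and 0 had an unadjusted p under 0.05, against 8% of all genes. For versican the antibody effect in PKCε mice was -0.98 ± 0.23 in females (adjusted p = 0.00526) and -0.66 ± 0.23 in males (adjusted p = 0.414), and the difference between them was -0.31 (95% interval -0.99 to 0.36). For biglycan it was -0.51 ± 0.17 in females (adjusted p = 0.0475) and -0.44 ± 0.17 in males (adjusted p = 0.528), all from limma. In females these were the 2 members called, against 10.3% of all genes. In males 0 members were called, against 0.0565% of all genes, and both had an unadjusted p under 0.05, against 7.1% of all genes. For Prelp the PKCε effect was 1.82 in females and 1.05 in males, a difference of 0.78 (95% interval 0.022 to 1.53, adjusted p = 0.569).

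Within group and sex the 9 genes spread very differently. The SD that remained after the mean of each group and sex was taken off was 1.16 for epiphycan and 0.93 for fibromodulin, against 0.14 for decorin and a median of 0.18 over all genes. In pairs, biglycan and decorin varied together over the 44 arrays (Pearson's r 0.84, Spearman's rho 0.79), as did decorin and lumican (0.80 and 0.83), fibromodulin and epiphycan (0.77 and 0.68) and lumican and versican (0.74 and 0.71). Asporin stood apart, with r from -0.24 (epiphycan) to 0.36 (lumican). These are descriptions of values that share arrays and their scaling. Without the 2 arrays farthest out, the 4 pairs had r of 0.84, 0.79, 0.80 and 0.73. Within the FVB FG-3149 group alone, with sex not taken off, they had 0.37, 0.083, 0.39 and 0.63. In the other groups they had 0.62 to 0.94. With the atrial marker level, fibromodulin and epiphycan had r of 0.86 and 0.86 in FVB IgG and 0.33 and 0.36 in FVB FG-3149 ventricles. In PKCε FG-3149 ventricles they had 0.71 and 0.86 with it, and in PKCε IgG ventricles 0.36 and 0.58. Biglycan, decorin, lumican and versican had 0.71 to 0.87 with it in FVB IgG ventricles. The part of the atrial level in these likenesses, and in those given next, was not tested.

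**Figure D5:**
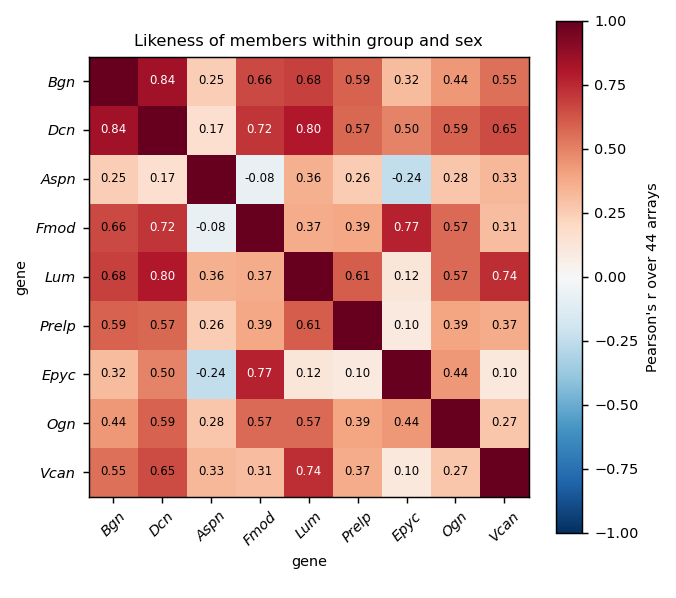
Pearson's r between the 9 genes over 44 arrays after the mean of each group and sex was taken off (colour and printed value). Bgn with Dcn (0.84) and Dcn with Lum (0.80) have the highest values, and Aspn has the lowest row.

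Outside the 9 genes, the pattern closest to versican over the same 44 values was that of Mfap5 (r 0.89), a microfibril protein. Biglycan was closest to Pcolce (0.92), an enhancer of procollagen processing, and decorin to Mgp (0.91), matrix Gla protein. Fibromodulin was closest to the metalloproteinase inhibitor Timp2 (0.90), lumican to Sgce (0.86), epiphycan to Vit (0.89) and osteoglycin to the elastic fibre protein Fbln5 (0.82). The nearest genes of Prelp (Col1a1, 0.73) and asporin (Pls3, 0.73) were less alike.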

How the data were processed

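Each of the 44 samples is the left ventricle of 1 mouse on 1 Affymetrix 430A 2.0 array. Per the series' design text, the authors summarised the arrays with GCRMA and normalised every gene to its median across samples in GeneSpring GX 7.3.1, and the deposited values are these ratios. They run from 0.01 to 1104, with 25 values at the lowest, and array medians run from 0.954 to 1.03. The scale is relative, so how far a gene stands over background is not known, and precision rests on how many arrays a group has.

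Of 22690 probe sets, 20393 name 1 gene, 691 several and 1606 none in GEO's platform annotation. The log2 ratio was taken, and for each of 12394 genes the probe set with the largest SD was kept. limma 3.58.1 (R 4.3.3) fitted 4 groups and sex over the 44 arrays, and a second fit had 8 groups by sex for the sex comparisons. P-values were adjusted by Benjamini-Hochberg over all genes, with a threshold of 0.05. Probe sets were also fitted one by one. The versican probe set difference was tested by permutation (scipy 1.17.1, 100000 resamples, exact within a sex). The fits were tested on simulated data with known changes and independent normal noise for each gene. That simulation held no arrays of high atrial or lung markers, so it does not bear on results that depend on such arrays.

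The members and gene lists were chosen with earlier results of these data known. All 9 members are named, and from each list up to 3 called genes with the lowest p. Kera, Optc, Has2, Hapln1, Acan, Ncan and Bcan were named in addition, after their values were seen. Replicate numbers were not taken as pairs in the main fits. Correlations of same-numbered arrays' deviations from their group means ran from -0.497 to 0.351. Sex was not taken off and differently numbered arrays were not set beside them, so this range does not settle whether the numbers pair samples. No 2 arrays were copies (highest correlation 0.747). Promoter windows of 250 bases came from RefSeq (GRCm38.p6) and matched 7 of the 9 genes. The design gives p-values over mice.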

Additional observations from a re-analysis of the deposited data

Results flagged for a closer look

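Among 18 sets of 10 arrays (9 genes in the PKCε IgG and FVB IgG groups), 3 held an array far from the others by Dixon's criterion, which chance gives in about 1 of 20 sets. Prelp was at -0.33 on PKCε IgG replicate 3, and the nearest of that group was at 0.85. Prelp was at -1.24 on FVB IgG replicate 10, with the nearest at -0.51. Epiphycan was at 2.60 on PKCε IgG replicate 6, with the nearest at 0.34, and that array had an atrial marker level of 6.86. The antibody effect on epiphycan differed between PKCε and FVB mice by 2.36 (limma, adjusted p = 0.0385).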

How the results depend on the processing

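The counts of members called were 7 for PKCε under IgG, 7 for PKCε under FG-3149, 2 and 3 for the antibody in PKCε and FVB mice, 1 for the difference between those effects and 4 for sex. Leaving out single arrays gave 7 to 8, 7, 2, 2 to 3, 0 to 1 and 4 to 6 in the same order, and 0 for both sex differences of effects. For the antibody in PKCε mice the count was 1 without the sex term, after quantile normalization, in females only, without the arrays of high atrial level or of high lung markers and with the Gapdh covariate, and 0 in males only. Versican was the member that remained in these 6 fits, and biglycan had adjusted p of 0.0545 to 0.111 there. For the antibody in FVB mice the count was 1 in females only, and 0 in males only, without the arrays of high atrial level and with the atrial covariate. It was 2, with biglycan lost, with the replicate block, after quantile normalization, with a pseudocount of 0.1, with the mean of probe sets, with the compared groups alone, without the array of high Uty and with the Gapdh covariate (adjusted p for biglycan 0.0590 to 0.0991). Biglycan there was called in 30 of 44 fits with 1 array left out (adjusted p up to 0.112). For the difference between the antibody effects the count was 0 with the replicate block, after quantile normalization, in either sex alone, without the arrays of high atrial level or of high lung markers and with the atrial covariate. The PKCε effect differed between sexes for 2 members, decorin and fibromodulin, without the arrays of high atrial level, a fit whose share of all genes called is not given here. The cause of these changes was not tested, and fits in 1 sex hold fewer arrays. The replicate block left 2 calls for the antibody in FVB mice and 5 for sex, and moved no other count beyond those given.

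Directions turned in these cases, none of them called. For the antibody in PKCε mice, without the arrays of high atrial level asporin was at 0.0037, Prelp at 0.050 and epiphycan at -0.20; Prelp was at 0.40 after quantile normalization, epiphycan at -0.032 without the lung arrays and at -0.22 to 0.29 over single arrays left out. For the antibody in FVB mice, decorin was at 0.047 without the arrays of high atrial level, Prelp at -0.036 with the mean of probe sets and -0.13 in males, and osteoglycin at -0.0020 with the mean of probe sets, -0.046 in females, -0.0040 with the Gapdh covariate and -0.022 to 0.065 over single arrays. For PKCε under FG-3149, epiphycan was at -0.085 in males and -0.083 without the arrays of high atrial level, and osteoglycin at 0.0078 with the mean of probe sets. For the difference between antibody effects, biglycan was at 0.0073 without the sex term and 0.052 in females, decorin at -0.092 without the arrays of high atrial level, -0.043 with the atrial covariate and -0.019 to 0.047 over single arrays, and Prelp at 0.33 after quantile normalization. For sex, without the arrays of high atrial level decorin was at -0.0052, epiphycan at -0.16 and osteoglycin at -0.018, and decorin was at -0.00034 after quantile normalization. Over all members, and all comparisons except the sex differences of effects, 913 values under the alternatives kept direction and call. There 11 gained a call, 34 lost one and 23 turned.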
